A study of Homo sapiens with 4 samples.

Results

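The E2F family was examined through 10 genes, namely the 8 E2F genes (E2F1 to E2F8) and the genes of their dimerization partners DP1 and DP2 (TFDP1 and TFDP2), out of 58243 genes in the files. They are named by their symbols, which were matched to the Ensembl gene identifiers of the files. The mRNA of human 293T cells was measured by RNA-seq after transfection of a negative control RNA or of a mimic of miR-1, of miR-122, or of miR-124, in 4 libraries. Each is labelled 48 h after transfection, whereas the study's methods give a shorter time. A mimic is a synthetic RNA duplex that supplies the mature miRNA strand. E2F5 was among the genes whose 3′ UTR had been tested as a miR-1 reporter target.

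There was 1 library per condition. No difference below has a replicate check, no test was possible, and every comparison is between libraries. All conditions used 1 cell line, 293T, which derives from human embryonic kidney cells and carries adenovirus early genes and the simian virus large T antigen. These viral proteins bind the retinoblastoma protein and its relatives, so the normal restraint on E2F proteins is weakened in all 4 conditions.

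E2F proteins bind DNA as regulators of genes for DNA synthesis and cell cycle entry, and most of them do so as dimers with a DP protein. In quiescent cells the pocket proteins, which are the retinoblastoma protein and its relatives p107 and p130, bind E2F and silence these genes, and cyclin-dependent kinases release E2F by phosphorylating the pocket proteins. E2F1, E2F2, and E2F3 are mainly activators. E2F4 and E2F5 mainly repress together with pocket proteins. E2F6 represses without pocket proteins, as part of a Polycomb complex, and E2F7 and E2F8 repress without a DP partner.

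A miRNA recognizes an mRNA mostly through its seed, bases 2 to 8, and the sequences of the mature miRNAs are given here because the sites below are read from them. Both come from RefSeq (GRCh38.p14), with the seed in capitals. The mature miR-1 sequence lies in MIR1-1 on the plus strand at chr20:62554351-62554372, and that of miR-122 lies in MIR122 on the plus strand at chr18:58451088-58451109.
hsa-miR-1-3p: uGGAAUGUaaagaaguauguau
hsa-miR-122-5p: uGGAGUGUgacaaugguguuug
A 6mer site pairs with bases 2 to 7 of the miRNA, a 7mer-m8 site also with base 8, a 7mer-A1 site has an A after the 6mer, and an 8mer has both. The sequence of miR-124 was not used here.

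Sites were searched in the longest 3′ UTR annotated for a gene (GENCODE release 44, GRCh38). Of the 10 genes, 5 held a miR-1 site of any type, against 40.1% of the 11205 genes examined, and 5 held a miR-122 site, against 40.4%. A site of 7 or 8 bases for miR-1 was present in 1 of the 10, E2F5, against 25% of the 11205 genes examined. For miR-122 such a site was present in 2 of the 10, E2F6 and TFDP2, against 26.4%. E2F1, E2F4, E2F7, and TFDP1 held no site of either miRNA. A match of letters is a description of the sequence and does not show that the site is used.

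The miR-1 8mer of E2F5, the reporter target, has its 6mer core at base 543 of a 3′ UTR of 656 bases. This stretch also lies in an exon of RBIS, a gene on the opposite strand. E2F3 held 4 miR-1 sites, more than any other of the 10, although each is only a 6mer. They are shown because E2F3 had the lowest ratio of the family in the miR-1 library, with the 6mer in capitals, on the plus strand.
E2F3, chr6:20491139-20491160: tccatgaaccactccCATTCCc
E2F3, chr6:20491250-20491271: tagctgccatttaagCATTCCt
E2F3, chr6:20491420-20491441: gtcccatcgtgcttcCATTCCc
E2F3, chr6:20491976-20491997: gtagtatctccggtcCATTCCt
For miR-122, TFDP2 held 7 sites in its 3′ UTR of 8085 bases, of which 5 are of 7 bases, and E2F6 held 1 site of 7 bases at the very end of its annotated 3′ UTR. Of those of 7 bases, 4 of TFDP2 and that of E2F6 are shown with the match in capitals, all on the minus strand.
TFDP2, chr3:141951362-141951383: ctagaaaacgttgaACACTCCt
TFDP2, chr3:141947462-141947483: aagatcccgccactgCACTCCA
TFDP2, chr3:141946602-141946623: ttttcccacatgtctCACTCCA
TFDP2, chr3:141945176-141945197: agatcgtgccatttgCACTCCA
E2F6, chr2:11444375-11444396: aagtatctctcgagtCACTCCA

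The deposited unit is FPKM, the fragments per kilobase of gene length per 1000000 reads. The reads behind the values were recovered from the values themselves, and the number of reads that each library had been divided by lay between 5887055 for miR-122 and 9452232 for miR-1. With at least 200 reads over the 4 libraries and values above 0.004 in each, 12667 genes were compared. All 10 genes of the family passed this filter, with between 460 reads for E2F8 and 5264 for TFDP1. Of the markers, all 6 of the 293T line were above 0.004 in every library, and so were all 4 neuronal markers. The 293T markers had 1434 to 2166 reads per library in sum, of which NEFL 1102 to 1705 and PAX2 only 12 to 30. The 7 hepatocyte markers had 2 to 11 reads per library in sum and the 4 blood markers 28 to 45, with no read of CD3E. The 6 muscle markers had 72 to 127 reads, of which MYOD1 17 to 32, and the 4 neuronal markers 135 to 250.

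The FPKM values had been divided by the genomic span of each gene, introns included, so they cannot be compared between genes with short and long introns. For the order of the levels the reads were therefore divided by the length of 1 representative transcript, and this level is in reads per kilobase of transcript per 1000000 reads. It takes every read of a gene as coming from this transcript. Whether reads in introns or in overlapping genes were also counted is not given in the sources used here. Intervals are exact 95% Poisson intervals of the reads and cover counting error only.

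In the control RNA library TFDP1 had the highest level, 75.4 (71.4 to 79.6), followed by E2F1 at 54.3 (51.0 to 57.9). E2F5 at 29.9 and E2F4 at 27.2 came next, and their intervals overlapped. E2F3 at 14.7 and E2F6 at 13.5 overlapped as well. At the low end were E2F2 at 9.36, E2F7 at 8.15, and TFDP2 at 7.64, each overlapping its neighbour, and E2F8 was the lowest at 4.52 (3.72 to 5.44). The range of the family was thus wide, with the partner DP1 and the activator E2F1 on top and the atypical repressor E2F8 at the bottom.

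The order was much the same in the mimic libraries. E2F4 and E2F5 overlapped in all of them, and E2F6 at 14.5 stood above E2F3 at 10.1 with miR-1, without overlap. E2F1 and TFDP1 were the highest pair in every library, and in the miR-124 library E2F1 at 63.6 and TFDP1 at 62.1 overlapped. E2F8 was the lowest in the control RNA, miR-1, and miR-124 libraries, and in the miR-122 library E2F8 at 6.23 and E2F7 at 6.17 overlapped at the bottom. Summed over the E2F genes, the level was 161.7 with the control RNA and 160.6, 159.8, and 161.8 with miR-1, miR-122, and miR-124. The activators E2F1 to E2F3 made up 48.5% of this sum in the control RNA library and 49.2%, 51.0%, and 53.7% of it in the mimic libraries. E2F4 and E2F5 made up 35.3%, 35.7%, 32.3%, and 32.9%, and the atypical E2F7 and E2F8 made up 7.84%, 6.04%, 7.76%, and 6.07%, in the same order.

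The mimic libraries were compared with the control RNA library by the ratio of the FPKM values, in which the gene length cancels. The interval of a ratio was computed from the share of its reads that came from the mimic library (exact, Clopper-Pearson, 95%), and it covers counting error only. A ratio was counted as past the threshold when it differed from 1 by at least 1.3-fold, that is at 1.3 or above or at 0.769 or below. The 3 ratios of a gene share the control RNA library. Fewer cells that express a gene and less of its RNA per cell cannot be told apart in these libraries.

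With miR-1, 2 of the 10 genes were lower past 1.3-fold, E2F3 and E2F7, against 14.2% of all genes compared, and none was higher, against 4.86%. With miR-122, 1 was lower, E2F7, against 9.00%, and 1 was higher, E2F8, against 5.31%. With miR-124, 1 was lower, E2F7, against 11.8%, and none was higher, against 7.36%. With 10 genes these counts lie close to the background. Past 1.5-fold there was none of the 10 in either direction, against 4.91%, 2.34%, and 3.08% of all genes that were lower and 0.955%, 1.34%, and 1.88% that were higher with miR-1, miR-122, and miR-124. The median log2 ratio of the 10 genes was -0.07, -0.03, and -0.18 in this order of the mimics, and that of all genes compared was -0.05, -0.02, and -0.05.

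By counting error alone, more genes of the family stood apart from the control RNA. With miR-1 the interval lay wholly below 1 for 2 genes, E2F3 and E2F7, against 24.6% of all genes, and above 1 for 1 gene, E2F1, against 15.5%. With miR-122 it lay below 1 for 3 genes, E2F3, E2F5, and E2F7, against 16.4%, and above 1 for E2F1 and E2F8, against 13.2%. With miR-124 it lay below 1 for E2F5, E2F7, and TFDP1, against 21.9%, and above 1 for E2F1 only, against 16.4%. E2F3, E2F5, E2F7, and TFDP1 were below the control RNA value with all 3 mimics, 4 of 10 against 33.9% of all genes. E2F1 and E2F4 were above it with all 3, 2 of 10 against 22.8%.

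Among the activators, E2F1 (ENSG00000101412, chr20:33675477-33686385, minus strand) was at 13.6 FPKM with the control RNA and at 15.2, 15.3, and 16.0 FPKM with miR-1, miR-122, and miR-124. The control RNA library was the lowest of the 4. The ratios were 1.11 (1.03 to 1.21), 1.12 (1.03 to 1.23), and 1.17 (1.07 to 1.28), none of them past 1.3-fold. Between mimic libraries every direct interval of E2F1 held 1.

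E2F2 (ENSG00000007968, chr1:23506438-23531233, minus strand), a close relative of E2F1, had FPKM values of 1.96, 1.76, 1.86, and 2.14 in the control RNA, miR-1, miR-122, and miR-124 libraries. Its ratios of 0.897, 0.947, and 1.09 all had intervals that held 1. The value was slightly below the control RNA with miR-1 and slightly above it with miR-124. Of the direct ratios between mimics, only that of miR-1 to miR-124, 0.822 (0.710 to 0.951), excluded 1.

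E2F3 (ENSG00000112242, chr6:20401879-20493714, plus strand), an activator with a longer and a shorter protein form that gene values cannot separate, was at 0.807 FPKM with the control RNA and at 0.557, 0.642, and 0.718 FPKM with miR-1, miR-122, and miR-124. The control RNA library was the highest and the miR-1 library the lowest. The ratio was 0.689 (0.607 to 0.783) with miR-1, from 483 reads against 491 in the smaller control RNA library. With miR-122 it was 0.795 (0.691 to 0.914), and with miR-124 it was 0.889 (0.779 to 1.01). Set directly against the other mimics, the miR-1 library had a ratio of 0.867 (0.754 to 0.998) to miR-122 and of 0.776 (0.679 to 0.886) to miR-124. Against their mean it was at 0.819, which is not past 1.3-fold. E2F3 carries the 4 miR-1 6mers shown above, and whether they bear on its ratio was not tested. E2F2, E2F8, and TFDP2 also held a miR-1 6mer, and their ratios with miR-1 were 0.897, 0.796, and 1.11. The E2F3 value with miR-1 was at percentile 6.42 of all genes compared. The genes that overlap E2F3 had at most 2 reads in any library.

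Of the repressors that act with pocket proteins, E2F4 (ENSG00000205250, chr16:67192155-67198918, plus strand) had FPKM values of 8.50, 9.06, 8.63, and 8.75 in the control RNA, miR-1, miR-122, and miR-124 libraries. These values lay close together, with ratios of 1.07, 1.02, and 1.03 whose intervals all held 1. The lowest bound of these intervals was 0.875, with miR-122, and the highest was 1.22, with miR-1.

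E2F5 (ENSG00000133740, chr8:85177154-85217158, plus strand), the gene with the miR-1 8mer, was at 1.47 FPKM with the control RNA and at 1.39, 1.18, and 1.24 FPKM with the mimics of miR-1, miR-122, and miR-124. The miR-1 library was the closest to the control RNA, with a ratio of 0.948 (0.830 to 1.08). The ratios with miR-122, 0.801 (0.684 to 0.937), and miR-124, 0.845 (0.727 to 0.983), were lower, and neither was past 1.3-fold. For comparison, the median log2 ratio in the miR-1 library was -0.18 over the 2804 genes with a miR-1 site of 7 or 8 bases. It was 0.00 over the genes with no miR-1 site, while E2F5 was at -0.08. These medians were not adjusted for 3′ UTR length. Across 11152 genes, Pearson's r of the log2 ratio with the log10 of this length was -0.345 with miR-1. It was -0.295 with miR-122 and -0.370 with miR-124. RBIS, a ribosome biogenesis gene on the opposite strand, shares 471 exonic bases with E2F5 in the representative transcripts. Its ratios were 1.11 (0.961 to 1.28), 0.864 (0.729 to 1.02), and 0.809 (0.684 to 0.956) with miR-1, miR-122, and miR-124. Whether strand was used in counting is not given in the sources used here, so reads of the 2 genes in the shared part may not be told apart. A long noncoding RNA on that strand, ENSG00000254208, shares 133 exonic bases with E2F5 and had 4 to 35 reads per library.

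E2F6 (ENSG00000169016, chr2:11444375-11466177, minus strand), which represses through a Polycomb complex, had FPKM values of 2.001, 2.15, 2.12, and 1.75 in the control RNA, miR-1, miR-122, and miR-124 libraries. The miR-124 library was the lowest of the 4. Its ratio of 0.872 (0.733 to 1.04) to the control RNA held 1, and so did the ratios of 1.07 and 1.06 with the other mimics. The miR-122 site of 7 bases in E2F6 thus stood beside a value slightly above that of the control RNA.

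Of the atypical repressors, E2F7 (ENSG00000165891, chr12:77021248-77065569, minus strand) was at 1.052 FPKM with the control RNA and at 0.788, 0.797, and 0.799 FPKM with miR-1, miR-122, and miR-124. The 3 mimic libraries lay together and the control RNA library stood above them. The ratios were 0.748 (0.639 to 0.877), 0.757 (0.632 to 0.906), and 0.759 (0.637 to 0.904), all past 1.3-fold. An interval wholly below 1 with all 3 mimics was found for 7.58% of all genes compared. Against the mean of the other 2 mimics the ratios were 0.987, 1.005, and 1.01, and every direct interval between mimic libraries held 1. After centring on the median of all genes the log2 ratios were -0.37, -0.38, and -0.35, of which that with miR-122 stayed past 1.3-fold. E2F7 held no miR-1 or miR-122 site.

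E2F8 (ENSG00000129173, chr11:19224063-19241620, minus strand), the partner of E2F7 in repression, was at 0.954 FPKM with the control RNA and at 0.759, 1.32, and 0.766 FPKM with miR-1, miR-122, and miR-124. The miR-122 library was the highest, and the miR-1 and miR-124 libraries lay together below the control RNA. With 136 reads against 111, the ratio with miR-122 was 1.38 (1.07 to 1.79), at percentile 97.3 of all genes compared. The ratios with miR-1, 0.796 (0.611 to 1.04), and miR-124, 0.803 (0.599 to 1.07), had intervals that held 1. Set directly against each other, the miR-122 library was 1.73-fold (1.35 to 2.23) above the miR-1 library and 1.72-fold (1.302 to 2.27) above the miR-124 library. The antisense gene CSRP3-AS1, which shares 7 exonic bases with E2F8, had 11 to 15 reads. E2F8 had the fewest reads of the family, and an interval that excluded 1 between the miR-1 and miR-122 libraries was found for 31.9% of all genes compared.

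Of the DP partners, TFDP1 (ENSG00000198176, chr13:113584721-113641473, plus strand), the main partner gene in most cells, had FPKM values of 3.51, 3.36, 3.24, and 2.89 in the control RNA, miR-1, miR-122, and miR-124 libraries. The miR-124 library was the lowest, with a ratio of 0.823 (0.759 to 0.893) on 1059 reads against 1318. The ratios of 0.959 with miR-1 and 0.925 with miR-122 had intervals that held 1. None was past 1.3-fold.

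TFDP2 (ENSG00000114126, chr3:141944428-142149544, minus strand) had FPKM values of 0.368, 0.410, 0.373, and 0.352 in the same order. Its ratios of 1.11 (0.994 to 1.25), 1.01 (0.892 to 1.16), and 0.957 (0.842 to 1.09) all held 1. The miR-122 library, whose seed has 7 sites in the 3′ UTR of TFDP2, had nearly the same value of this gene as the control RNA library.

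The patterns of the genes were compared by the largest absolute difference of their log2 ratios over the 3 mimics. E2F4 and TFDP2 were the most alike, with a difference of at most 0.11. E2F3 was most like E2F7, at 0.23, and E2F5 most like TFDP1, at 0.21. E2F8 was the least like any other, since its nearest gene, E2F6, was 0.43 away.

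The GC content of the 3′ UTR ranged from 28.1% in E2F8 and 32.8% in E2F5 to 55.9% in E2F1 and 56.5% in E2F4. The log2 ratios of the 10 genes in the miR-124 library followed it closely. The 3 genes with the highest GC content, E2F4, E2F1, and E2F2 at 53.5%, were the only ones of the family above the control RNA, and the other 7, from 28.1% to 46.4%, were all below it. Pearson's r across the 10 genes, which share the 2 libraries and are not replicates, was 0.917 with miR-124, 0.493 with miR-1, and 0.0668 with miR-122. Across 11152 genes compared, r was 0.615, 0.244, and 0.343, respectively. A cubic fit of the ratios (log2) on 3′ UTR GC content, 3′ UTR length, the length used for FPKM, and reads took 45.5% of the variance over these genes with miR-124, 19.9% with miR-1, and 18.4% with miR-122. After this trend was subtracted, r over the 10 genes was 0.349 with miR-124. The cause of the trend was not tested.

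Values moved accordingly. With miR-124, the log2 ratio of E2F1 moved from 0.23 to -0.02, that of TFDP1 from -0.28 to -0.14, and that of E2F7 from -0.40 to -0.21. E2F4 moved from 0.04 to -0.25, farther from 0 than before. The log2 ratio of E2F1 also moved with the other mimics, from 0.16 to -0.0057 with miR-1 and from 0.17 to 0.032 with miR-122. With miR-1, E2F3 kept an adjusted log2 ratio of -0.44, past 1.3-fold, and with miR-122 E2F8 kept 0.50. E2F7 was no longer past 1.3-fold after the adjustment, at -0.33 with miR-1 and -0.30 with miR-122. In the adjusted values, 1 of the 10 genes was lower past 1.3-fold with miR-1, against 11.2% of all genes, none with miR-122, against 6.67%, and none with miR-124, against 5.51%. None was higher with miR-1, against 3.43%, 1 with miR-122, against 3.76%, and none with miR-124, against 2.72%.

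The genes around E2F were taken from lists of 66 genes, of which 65 were compared. LIN37, a MuvB subunit, had too few reads. Of the 65 genes, 6 were lower and 5 higher past 1.3-fold with miR-1, 2 lower and 2 higher with miR-122, and 5 lower and 4 higher with miR-124. Over all genes compared, the shares were 14.2% lower and 4.86% higher, 9.00% and 5.31%, and 11.8% and 7.36%, in the same order.

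Of the 3 pocket protein genes, whose products hold E2F in check, 1 was lower past 1.3-fold with miR-1, none with miR-122, and 1 with miR-124. RB1, the retinoblastoma gene, was at 0.346 FPKM with the control RNA and at 0.235, 0.274, and 0.267 FPKM with the mimics in the usual order, so the control RNA library was the highest. Its ratios were 0.679 (0.589 to 0.781), 0.790 (0.677 to 0.920), and 0.772 (0.663 to 0.897), the first of them past 1.3-fold. RBL1, which encodes p107, was past it with miR-124, at 0.664 (0.546 to 0.806), and had ratios of 0.854 and 0.783 with miR-1 and miR-122. RBL2, which encodes p130, had ratios of 1.01, 0.854, and 0.867 with intervals that held 1. The median log2 ratio of the 3 genes was -0.23, -0.34, and -0.37 with the 3 mimics in this order, and -0.11, -0.20, and -0.12 after the adjustment. Their median 3′ UTR GC content was 34.1%.

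None of the 6 MuvB genes and partners compared was past 1.3-fold with any mimic. LIN9 (0.842, 0.884, and 0.797) and LIN54 (0.842, 0.779, and 0.909), both MuvB subunits, had the lowest ratios on average. MYBL2 (1.10, 1.09, and 1.08) and FOXM1 (1.04, 1.17, and 1.07), the transcription factors that join MuvB later in the cell cycle, had the highest. After the adjustment the log2 ratios of MYBL2 were -0.09, -0.05, and -0.18, and those of FOXM1 were -0.09, 0.12, and -0.06. Those of LIN9 were -0.17, -0.05, and -0.09, and those of LIN54 were -0.07, -0.20, and 0.12.

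Among the 8 cyclins and kinases of the G1 phase, CCND1, which encodes cyclin D1, was lower past 1.3-fold with miR-1. Its FPKM values were 12.2, 8.38, 9.82, and 10.3 in the control RNA, miR-1, miR-122, and miR-124 libraries, the control RNA again being the highest, and the ratio with miR-1 was 0.689 (0.633 to 0.751). CCND2, for cyclin D2, was higher with miR-122, at 1.45 (1.25 to 1.69), and had ratios of 0.908 and 1.09 with the other mimics. CCNE1, for cyclin E1 and itself a classical E2F target, had a ratio of 1.58 (1.25 to 1.997) in the miR-1 library, and ratios of 0.771 (0.566 to 1.046) and 1.14 (0.870 to 1.49) in the others. CDK6, the relative of CDK4, was past the threshold at 0.732 with miR-122 and 0.734 with miR-124, and was at 0.955 in the miR-1 library. After the adjustment the log2 ratios of CDK6 with miR-122 and miR-124 were -0.27 and -0.18, no longer past 1.3-fold. CDK4, a kinase partner of cyclin D1, lay between 0.942 and 1.09.

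Of the 7 inhibitors of these kinases, none was lower past 1.3-fold. CDKN1C, which encodes p57, was at 5.38 FPKM with the control RNA and at 7.61, 8.02, and 10.1 FPKM with the mimics. All mimic libraries were above the control RNA, with ratios of 1.42 (1.10 to 1.83), 1.49 (1.13 to 1.97), and 1.89 (1.46 to 2.45), and after the adjustment the log2 ratios were 0.40, 0.49, and 0.81. CDKN2D, for p19, had ratios of 1.31 (0.971 to 1.78), 1.22 (0.870 to 1.72), and 1.797 (1.33 to 2.45), and adjusted log2 ratios of 0.28, 0.17, and 0.68, of which the first was no longer past 1.3-fold. CDKN1A, for p21, and CDKN1B, for p27, lay between 0.842 and 1.053. SKP2, FZR1, and CCNF, which help to mark cell cycle proteins for degradation, had no ratio past 1.3-fold, and the lowest was that of SKP2 with miR-124, 0.781 (0.726 to 0.840).

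Of the 8 genes of the E2F6 complex, MGA, the large scaffold protein of the complex, was lower past 1.3-fold with all 3 mimics. It was at 0.305 FPKM with the control RNA and at 0.195, 0.207, and 0.219 FPKM with the mimics, and its ratios were 0.639 (0.542 to 0.754), 0.678 (0.562 to 0.816), and 0.718 (0.600 to 0.857). MAX, the DNA-binding partner of MGA, was past the threshold at 0.681 (0.594 to 0.781) with miR-1, and had ratios of 1.17 and 0.946 with the other mimics. YAF2, another subunit, was at 0.706 with miR-1. After the adjustment the log2 ratio of MGA with miR-124, -0.26, and that of YAF2 with miR-1, -0.32, were no longer past 1.3-fold. PCGF6 and L3MBTL2, also subunits of this complex, had ratios of 1.22 and 1.17 with miR-1.

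The next list held 25 S phase genes that E2F is known to activate. None was lower and 1 was higher with miR-1, none was past it with miR-122, and 2 were lower and 2 higher with miR-124. Over all genes compared, 19.1%, 14.3%, and 19.1% were past 1.3-fold in either direction with these mimics. The median log2 ratio of the 25 genes was 0.01, 0.02, and -0.13, and after the adjustment -0.11, -0.01, and -0.08. RRM2, a subunit of ribonucleotide reductase, was at 9.31 FPKM with the control RNA and at 13.0, 11.2, and 9.07 FPKM with the mimics, and its ratio with miR-1 was 1.40 (1.27 to 1.54). CDT1, which licenses replication origins, was at 1.39 (1.25 to 1.56) and TK1, thymidine kinase, at 1.38 (1.29 to 1.48) with miR-124, and their 3′ UTRs have a GC content of 57.6% and 60.0%. POLA1, the catalytic subunit of DNA polymerase alpha, at 0.742 (0.674 to 0.817), and CHEK1, a checkpoint kinase, at 0.761 (0.641 to 0.901), were the lower ones, with 42.6% and 33.1%. Adjusted, the log2 ratios with miR-124 were 0.18 for CDT1, 0.12 for TK1, -0.36 for POLA1, and -0.19 for CHEK1, none of them past 1.3-fold.

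Of the genes that E2F1 is known to activate in apoptosis, TP73, a relative of the p53 gene, APAF1, which encodes the scaffold of the apoptosome, and PMAIP1 lay between 0.843 and 1.09 with every mimic, and none of them was past 1.3-fold.

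The promoters of the family were searched for E2F motifs because several E2F genes are themselves known E2F targets. The words TTTGGCGC, TTTCGCGC, and TTTCCCGC were searched on both strands from 250 bases before to 50 bases after each RefSeq start site (GRCh38.p14), for the 8 genes of the family with an entry. Words on opposite strands can overlap each other, and no promoter of the family held more than 1 match. At least 1 word was found in 4 of these 8 genes, E2F1, E2F2, E2F3, and TFDP1, in 14 of 21 S phase targets with an entry (66.7%), in 5.72% of the 9637 genes compared that had an entry, and in 2.74% of all 35116 promoters in the table. The windows around the 4 matches are shown with the word in capitals, each read along the strand of its gene.
E2F1, chr20:33686387-33686416, minus strand: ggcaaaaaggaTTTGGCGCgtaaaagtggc
E2F2, chr1:23531257-23531286, minus strand: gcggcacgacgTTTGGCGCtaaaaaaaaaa
E2F3, chr6:20401815-20401844, plus strand: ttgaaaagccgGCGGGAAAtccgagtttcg
TFDP1, chr13:113584622-113584651, plus strand: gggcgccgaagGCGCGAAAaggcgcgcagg
In E2F3 and TFDP1 the word runs on the opposite strand and appears as its reverse complement. In the deposited values the genes with a match did not share a pattern of ratios. E2F1 was above the control RNA with all 3 mimics, and E2F3 and TFDP1 were below it with all 3. E2F2 was below it with miR-1 and miR-122 and above it with miR-124.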

How the data were processed

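Single-end reads of 4 libraries of 293T cells had been mapped by the authors to GRCh38 with hisat2, and 1 FPKM value per Ensembl gene and library was deposited. The submitters' processing notes list CASAVA 1.8 and HISAT2 2.0.0. Which program and annotation were used for counting is not given in the sources used here. Reads were recovered as whole multiples of the value of 1 read, with a tolerance of 2e-05 reads, for 99.7% of the 32358 genes above 0. The length was the annotated distance (GENCODE release 44) for 17468 genes and otherwise the smallest whole number that fitted, or a multiple of up to 4 that came within 10% of this distance. For the 10 genes the recovered reads had no common divisor.

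No test was run, since each condition has 1 library, and p-values are not given. Named were the 10 genes and, per list, the 3 genes with the lowest and the 3 with the highest mean log2 ratio. Some genes and sites that this rule names are not reported here. The members and lists were chosen with earlier results of these data known. Alternatives were pseudocounts of 1 and 0.1, another reference, centring, median-of-ratios scaling, the adjustment, a 1.5-fold threshold, other filters, and other 3′ UTRs. The steps were tested on simulated data. The software was matplotlib 3.10.9, pandas 2.3.3, scipy 1.17.1, and numpy 2.4.6 under Python 3.11.15.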

Additional observations from a re-analysis of the deposited data

Results flagged for a closer look

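For 4 genes of the family, mimics lay on opposite sides of the control RNA and the interval of their direct ratio excluded 1. With 1 library each, these differences between conditions were not tested, and the intervals cover counting error only. For E2F8 the miR-1 library had a ratio of 0.577 (0.449 to 0.741) to the miR-122 library, and the miR-122 library had a ratio of 1.72 (1.302 to 2.27) to the miR-124 library. For E2F6 the ratio to the miR-124 library was 1.23 (1.052 to 1.45) with miR-1 and 1.21 (1.02 to 1.45) with miR-122. For E2F2 the ratio of miR-1 to miR-124 was 0.822 (0.710 to 0.951), and for TFDP2 it was 1.16 (1.04 to 1.31). By the interval alone, wherever the control RNA lay, miR-1 and miR-124 differed for 5 of the 10 genes, against 38.0% of all genes compared. Between miR-122 and miR-124 it was 3 of 10 against 24.2%, and between miR-1 and miR-122 it was 3 of 10 against 31.9%. The share of all genes that meets both conditions is not given here.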

How the results depend on the processing

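No paired analysis was possible because there was a single library for each condition, and none could be left out. The median log2 ratios of the 10 genes stayed between the medians of their lower and upper interval bounds under the 6 alternatives run for them. Such bounds reflect the counting error of single genes and not of the family median, so this is a loose check. The median with miR-1 went from -0.07 to 0.02 against the mean of the other 2 mimics. The counts of genes past the threshold rest on 1 or 2 genes near it. The count of 2 genes lower with miR-1 became 1, E2F3, with a pseudocount of 0.1, centring, median-of-ratios scaling, or the adjustment, and 0 with a pseudocount of 1 or a 1.5-fold threshold. The 1 gene lower with miR-122 became 0 with either pseudocount, the other reference, the adjustment, or 1.5-fold, and the 1 higher became 0 with a pseudocount of 1 or 1.5-fold. The 1 gene lower with miR-124 became 0 with either pseudocount, centring, median-of-ratios scaling, the adjustment, or 1.5-fold. Against the mean of the other 2 mimics 1 gene was lower with miR-1 and 1 with miR-124, in both cases E2F8 and neither E2F3 nor E2F7, and E2F7 changed sign, to a log2 ratio of 0.0068 with miR-122 and 0.012 with miR-124. At 1.5-fold, 2 genes of the pathway lists were lower and 1 higher with miR-1, 0 and 0 with miR-122, and 1 and 2 with miR-124, and after the adjustment 1 was lower and 2 were higher with miR-124. With no minimum of reads, 40.9%, 33.7%, and 37.2% of genes were past 1.3-fold with miR-1, miR-122, and miR-124, against 19.1%, 14.3%, and 19.1%. By FPKM as deposited E2F1 ranked 1, E2F4 2, and E2F3 9 in the control RNA library, against 2, 4, and 5 per transcript length. The causes were not tested. Values with few reads, such as those of E2F8, are limited by depth.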
